A study of Mus musculus with 3 samples.

Results

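The genes described here are myostatin (Mstn), 3 of the activin receptors it signals through (Acvr2a, Acvr2b and Acvr1b), its antagonists Fst and Fstl3, the SMAD genes Smad2, Smad3 and Smad7, and Mss51, a muscle mitochondrial gene that responds to myostatin. They were picked by gene symbol, and each of the 10 symbols stood on 1 row of the 24481 in the deposited data. The choice was made with earlier results from these libraries known, in particular the low values of Mss51 and Mstn in the exercise plus SQH library relative to the exercise control. Their differences are therefore a description, with no test. ICR mice, which are outbred, were sampled at postnatal day 42, and mRNA of their skeletal muscle was read in 3 groups of 1 library each: exercise with a treatment labelled SQH, an exercise control and a control. According to its title, the study is about fatigue and leaf extracts of the dwarf bamboo Sasa quelpaertensis. The labels give no muscle, exercise protocol, SQH dose or number of animals in a library. Reads came from transcript 3′ ends (Lexogen QuantSeq).

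Myostatin is a secreted growth factor of the TGF-beta superfamily that limits the mass of skeletal muscle. It binds activin type II receptors, which recruit a type I receptor that phosphorylates SMAD2 and SMAD3. These enter the nucleus with SMAD4, while SMAD7 blocks the receptor step and follistatin (Fst) and follistatin-like 3 (Fstl3) bind the ligand outside the cell. Mss51 is expressed mainly in skeletal muscle, with more transcript in fast glycolytic fibres, and its transcript is known to be lower in mice in which myostatin is blocked. Deletion of Mss51 in mice is known to enhance muscle metabolism and glucose homeostasis.

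The stretches of 250 bases just before the start sites of Mss51 and Mstn are shown because, of the members past the expression minimum described below, these had the widest gap between the exercise plus SQH and exercise control libraries. They are the RefSeq sequences of build GRCm38.p6, Mss51 from the minus strand of chr14:20496902-20497151 and Mstn from the plus strand of chr1:53061390-53061639, written 5′ to 3′. Capitals mark the SMAD palindrome GTCTAGAC, the shorter SMAD box CAGAC on either strand, and the TATA box TATAAA on either strand.
Mss51: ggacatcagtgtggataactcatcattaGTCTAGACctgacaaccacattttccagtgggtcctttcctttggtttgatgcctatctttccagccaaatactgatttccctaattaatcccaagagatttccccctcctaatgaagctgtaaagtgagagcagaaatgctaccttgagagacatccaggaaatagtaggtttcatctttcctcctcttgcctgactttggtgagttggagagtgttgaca
Mstn: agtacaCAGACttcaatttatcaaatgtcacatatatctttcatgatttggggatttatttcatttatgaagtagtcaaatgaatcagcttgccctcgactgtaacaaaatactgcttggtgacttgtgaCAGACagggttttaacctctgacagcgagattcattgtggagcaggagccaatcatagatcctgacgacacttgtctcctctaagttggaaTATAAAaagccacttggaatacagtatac
The GTCTAGAC of Mss51 lies at positions -222 to -215 from the start site. Stretches with this palindrome made up 0.167% of the 32851 promoters of the same length, and Mss51 was the only one of 7 members with a RefSeq promoter to hold it. The stretch of Mstn holds CAGAC at positions -244 to -240 and -120 to -116, a motif of 42.2% of promoters, and TATAAA at -29 to -24, a motif of 12.4%. Mstn also holds 4 E-boxes (CANNTG, the binding motif of muscle regulatory factors), which occur in 66.2% of promoters, whereas the Mss51 stretch has none. The search covered 7 motifs on both strands, and neither stretch held the FOXO motif GTAAACA, the glucocorticoid half-site AGAACA or the MEF2 consensus. A match to such letters is a description of the sequence and not evidence of binding.

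Values are deposited log2 levels, and how the authors scaled them is not given. Without replicates a call rested on size: a gene was called higher or lower at a difference of 1 or more on the log2 scale (2-fold), where the mean linear value of a row over the 3 libraries reached 66.5. That minimum left 7857 rows. Of the 10 members 8 passed it, and Fst and Acvr1b did not. The libraries held about 12.4 M reads with SQH, 8.12 M in the exercise control and 10.8 M in the control. The ± beside a difference is the standard error from counting these reads, and a counting interval is at 95%. Both leave out animals and library preparation, for which there is no replicate. The muscle genes Acta1 and Ckm stood between 16.59 and 19.01 in every library. The exercise control library stood apart from both others in fibre type genes. All 10 slow-fibre markers, such as Myh7 and Tnnt1, were lower there than in the control, with a median difference of -3.83, and all 10 stood higher with SQH than in that library (median 3.49). In the same comparisons the 13 fast-fibre markers had medians of 0.38 and -0.52, and the 5 nerve and Schwann cell markers past the minimum had medians of 1.85 and -1.79. The 4 adipocyte markers past the minimum had medians of -0.65 and 1.28. Of these, 2 were called lower and then 3 higher, where 5.33% and 5.68% of all tested rows were. The 5 tendon markers past the minimum had medians of 0.98 and 0.06, and of 1.01 in exercise plus SQH against the control. They were mixed, since Tnmd and Fmod were called higher and Scx lower (-1.18) in the exercise control against the control. Of all tested rows, 2.95% were called higher and 5.33% lower there. The part of these tissues and fibre types in the values that follow was not tested. In whole muscle, fewer cells of a type and less RNA per cell cannot be told apart.

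Mstn, the ligand, stood at 7.27 in exercise plus SQH, 8.80 in the exercise control and 8.21 in the control. The SQH library was the lowest and the exercise control the highest. Exercise plus SQH was called lower than the exercise control, by -1.52 ± 0.13, and 26 other tested rows lay as low or lower. Against the control the SQH value was lower by -0.94 ± 0.13, just short of the 2-fold rule. The exercise control lay 0.58 ± 0.11 above the control, and 797 tested rows, Mstn included, had a difference at least as high. All 3 counting intervals left out 0, so the order of the libraries was wider than the counting error. In GRCm38 the gene spans 53061640 to 53068079 on chromosome 1, and none of its exonic bases is shared with another gene.

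Mss51 showed the widest range of the 10 members. It stood at 9.30 in exercise plus SQH, 12.45 in the exercise control and 10.95 in the control, or about 821, 4700 and 2099 reads. The exercise control library was thus far above both others, and the SQH library below the control. Exercise plus SQH against the exercise control gave -3.15 ± 0.05, which is 8.88-fold lower. Only 1 of the 7857 tested rows differed by more in that direction, Prss22, which was listed at 0 with SQH. Against the control, exercise plus SQH was lower by -1.65 ± 0.06 (3.13-fold lower), with 12 other tested rows as low or lower. The exercise control was called higher than the control, by 1.502 ± 0.04 (2.83-fold), among the 55 tested rows with at least that difference. The fast-fibre markers, on the same scale, spanned -0.26 to 0.79 in the exercise control against the control and -0.74 to 0.94 in exercise plus SQH against the control. In exercise plus SQH against the exercise control they spanned -1.16 to 0.15. Of the 13 there, 11 lay below 0 and 2 were called lower (Myh4 and Atp2a1), where 2.33% of all tested rows were. In the exercise control against the control 11 of the 13 fast-fibre markers lay above 0 and 2 below. In exercise plus SQH against the control 10 lay below 0 and 3 above, with a median of -0.34. The slow-fibre median there was -0.37. The part of fibre type in the Mss51 values was not tested.

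**Figure D1:**
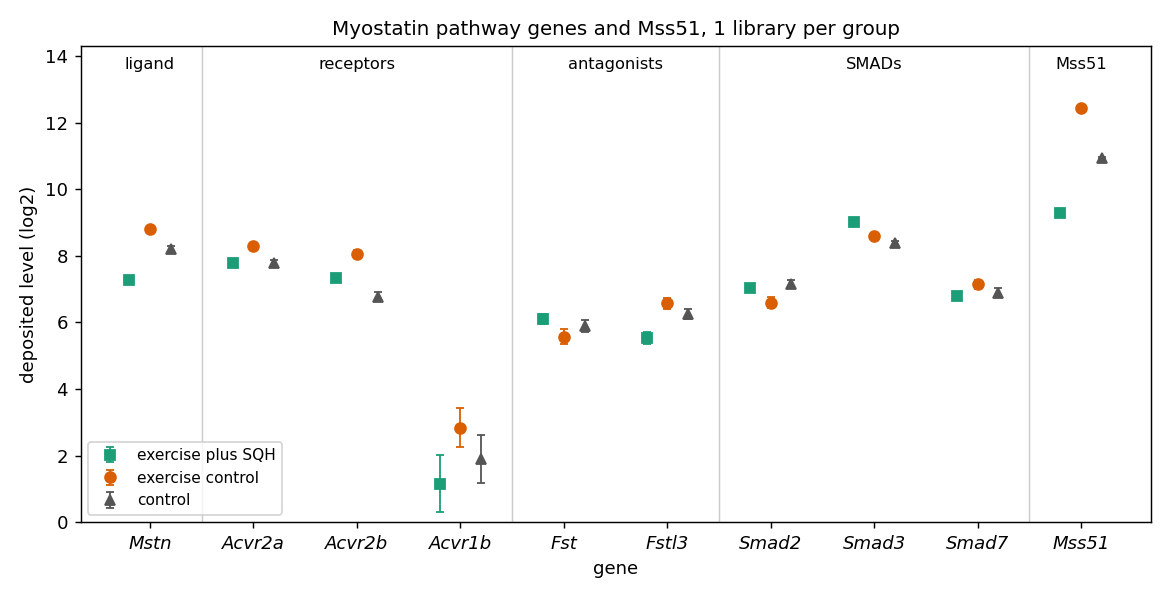
Deposited log2 level of each of the 10 genes in exercise plus SQH (squares), exercise control (circles) and control (triangles), 1 library each, with bars for 1 standard error of counting. Mss51 spreads from 9.30 with SQH to 12.45 in the exercise control, whereas Acvr1b rests on 3 to 6 reads and has wide bars.

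The receptors did not share 1 pattern. Acvr2b, a type II receptor that binds myostatin with high affinity, stood at 7.33 in exercise plus SQH, 8.07 in the exercise control and 6.77 in the control. The control was the lowest of the 3 libraries. The exercise control was called higher than the control by 1.30 ± 0.16, while exercise plus SQH lay -0.74 ± 0.14 from the exercise control and 0.56 ± 0.17 from the control, neither of which was called. Acvr2a, the other activin type II receptor, stood at 7.78 in exercise plus SQH, 8.28 in the exercise control and 7.77 in the control. Its SQH and control values lay 0.004 apart, inside the counting error, with the exercise control 0.51 ± 0.13 above the control. Acvr2a shares 446 exonic bases with Orc4 on the opposite strand, so part of its reads may belong to Orc4, which stood at 8.99, 8.96 and 8.63 in exercise plus SQH, exercise control and control.

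Acvr1b, which encodes the type I receptor ALK4, was nearly unread, with about 3 reads in exercise plus SQH, 6 in the exercise control and 4 in the control. The ratio of exercise plus SQH to the exercise control had a counting interval of 0.0522 to 1.51, and that of the exercise control to the control one of 0.450 to 9.14. No difference of Acvr1b was detectable at this depth. In these 3′ libraries a low value speaks only of the transcript ends that were counted.

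Of the antagonists, Fstl3 stood at 5.53 in exercise plus SQH, 6.57 in the exercise control and 6.25 in the control. The SQH library was the lowest, and it was called lower than the exercise control by -1.04 ± 0.25, a call that was lost with a pseudocount of 10 (-0.90) and with the minimum at the upper quartile, which Fstl3 did not reach. Against the control it lay at -0.72 ± 0.25, and the exercise control lay 0.32 ± 0.23 above the control, within the counting interval. These values cannot be credited to Fstl3 alone. Prss57, a serine protease gene on the opposite strand, shares 1157 exonic bases with Fstl3, and its row held the same value as that of Fstl3 in all 3 libraries. No other member had a row with identical values. Fst shares 115 exonic bases with Gm47040, an antisense gene with no row in the deposited data. The Fst row stood at 6.10 in exercise plus SQH, 5.57 in the exercise control and 5.89 in the control. This is the reverse order to that of Mstn, but each of the 3 counting intervals of Fst included 0, the widest difference being 0.53 ± 0.27 between exercise plus SQH and the exercise control.

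None of the SMAD genes was called in any comparison. Smad3, which encodes a receptor SMAD, stood at 9.01 in exercise plus SQH, 8.61 in the exercise control and 8.38 in the control. It was highest in the SQH library, 0.63 ± 0.09 above the control and 0.40 ± 0.10 above the exercise control. Smad2, which encodes the other one, stood at 7.03 in exercise plus SQH, 6.59 in the exercise control and 7.17 in the control. The exercise control was its lowest library, at -0.58 ± 0.20 from the control, while exercise plus SQH and the control lay within the counting interval. Smad7, which encodes the inhibitory SMAD, stood at 6.78 in exercise plus SQH, 7.14 in the exercise control and 6.90 in the control. Its range of 0.36 was the narrowest of the 10 members.

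Set side by side, the exercise control library held the highest value of 7 members, exercise plus SQH that of 2 (Fst and Smad3) and the control that of 1 (Smad2). The 7 include Acvr1b, at 3 to 6 reads, and Fstl3, whose row equals that of Prss57. For Smad7 and Fstl3 the exercise control and the control lay within the counting interval. How often that library was the highest over all tested rows was not counted. In exercise control against control, 2 of the 8 members past the minimum were called, both higher (Mss51 and Acvr2b), where 8.29% of all tested rows were called, 2.95% higher and 5.33% lower. In exercise plus SQH against the exercise control 3 were called, all lower (Mss51, Mstn and Fstl3), where 8.01% of all tested rows were called, 5.68% higher and 2.33% lower. In exercise plus SQH against the control Mss51 alone was called, lower, where 3.02% of tested rows were called, 1.76% higher and 1.26% lower. Since the members were chosen from these values, their counts support nothing beyond the description. The comparisons share libraries, the exercise control entering both of the first 2.

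**Figure D2:**
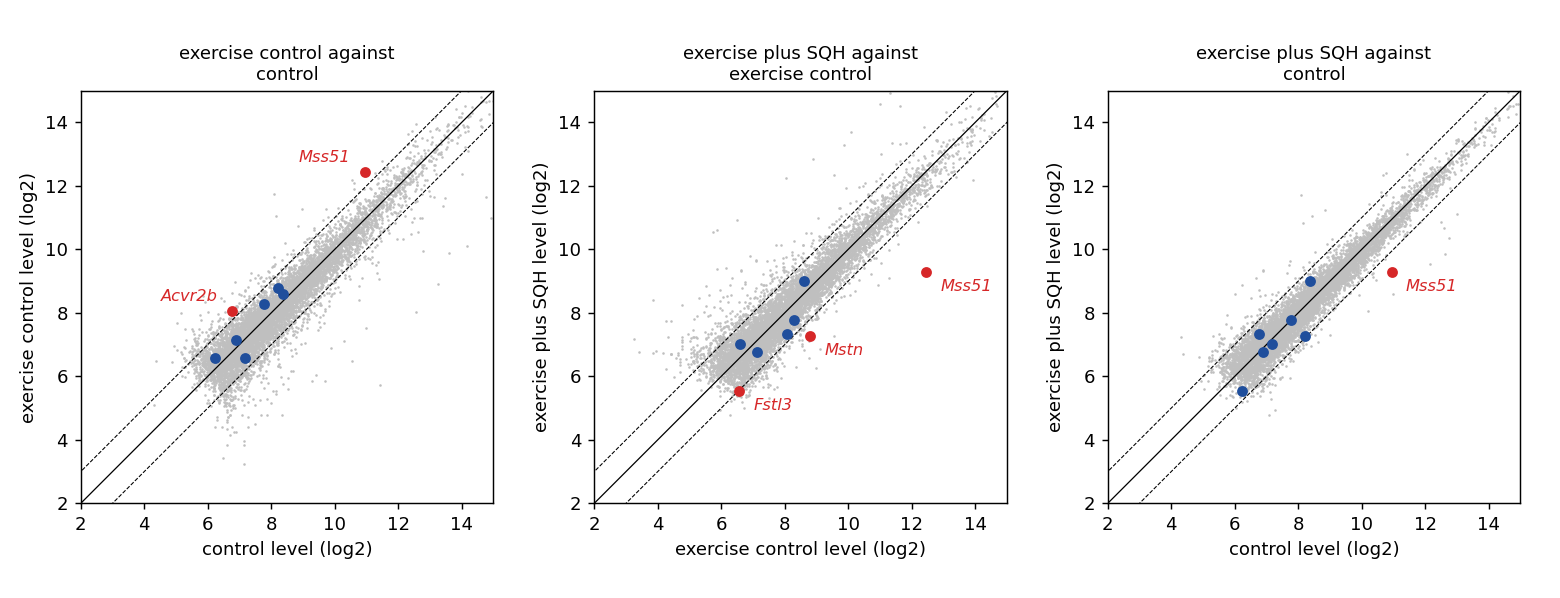
Log2 level of the 7857 tested rows (grey) in each pair of libraries, with the 8 members past the minimum as larger points, red and named where they differ by 1 or more (dashed lines). Rows above 15, and those with the lowest values, lie outside the axes. Mss51 lies above the band at 12.45 in the exercise control against 10.95 in the control, and below it at 9.30 with SQH in both other panels.

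The wider pathway was described with a list of 75 other genes, of which 35 passed the minimum. Their median difference was 0.04 in exercise control against control, -0.015 in exercise plus SQH against the exercise control and 0.12 in exercise plus SQH against the control. Over all tested rows the medians were -0.05, 0.03 and -0.02, in the same order. Among the other ligands and the proteins that process or store them, none of 6 was called in any comparison. Gdf11, the closest relative of myostatin, had about 20 reads in exercise plus SQH, 10 in the exercise control and 17 in the control, which was below the minimum. Inhba, which encodes the subunit of activin A, was also below it, at 5.40 in exercise plus SQH, 4.95 in the exercise control and 5.74 in the control.

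Called genes of the wider list lay on both sides of 0. In exercise control against control 2 of 35 were called higher and 2 lower, together 11.4%, where 8.29% of all tested rows were called. The lower ones were Ctgf (-1.11 ± 0.07), which encodes a matrix-associated growth factor, and the TGF-beta type I receptor gene Tgfbr1 (-1.04 ± 0.24), whose call was lost under each of 3 other scalings. The higher ones were the collagen gene Col1a1 (1.28 ± 0.04) and Skil (1.03 ± 0.17), whose product SnoN represses SMAD transcription. Skil and Tgfbr1 also lost their calls with a pseudocount of 10. Ctgf, Col1a1 and Skil are known targets or feedback genes of TGF-beta signalling.

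In exercise plus SQH against the exercise control 3 of 35 were called, all higher. Ctgf stood at 12.36 in exercise plus SQH, against 9.55 in the exercise control (2.81 ± 0.06). The others were Acvr1, the type I receptor gene ALK2 (1.26 ± 0.22), and Fstl1, which encodes a secreted follistatin-like glycoprotein (1.04 ± 0.06), whose call was lost under median centring and quantile normalization. Ctgf was thus higher in the library in which Mstn and Mss51 were lower. These 3 made up 8.57% of the list, where 8.01% of all tested rows were called.

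In exercise plus SQH against the control 3 of 35 were called, or 8.57%, where 3.02% of all tested rows were. Ctgf (1.69 ± 0.04) and the BMP type I receptor gene Bmpr1b (1.12 ± 0.18) were higher. Smad1, which carries the BMP signal, was lower (-1.08 ± 0.15), at 6.82 in exercise plus SQH, 7.43 in the exercise control and 7.90 in the control. Smad4, the partner of all receptor SMADs, lay at 9.06 in exercise plus SQH, 9.12 in the exercise control and 9.08 in the control.

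**Figure D3:**
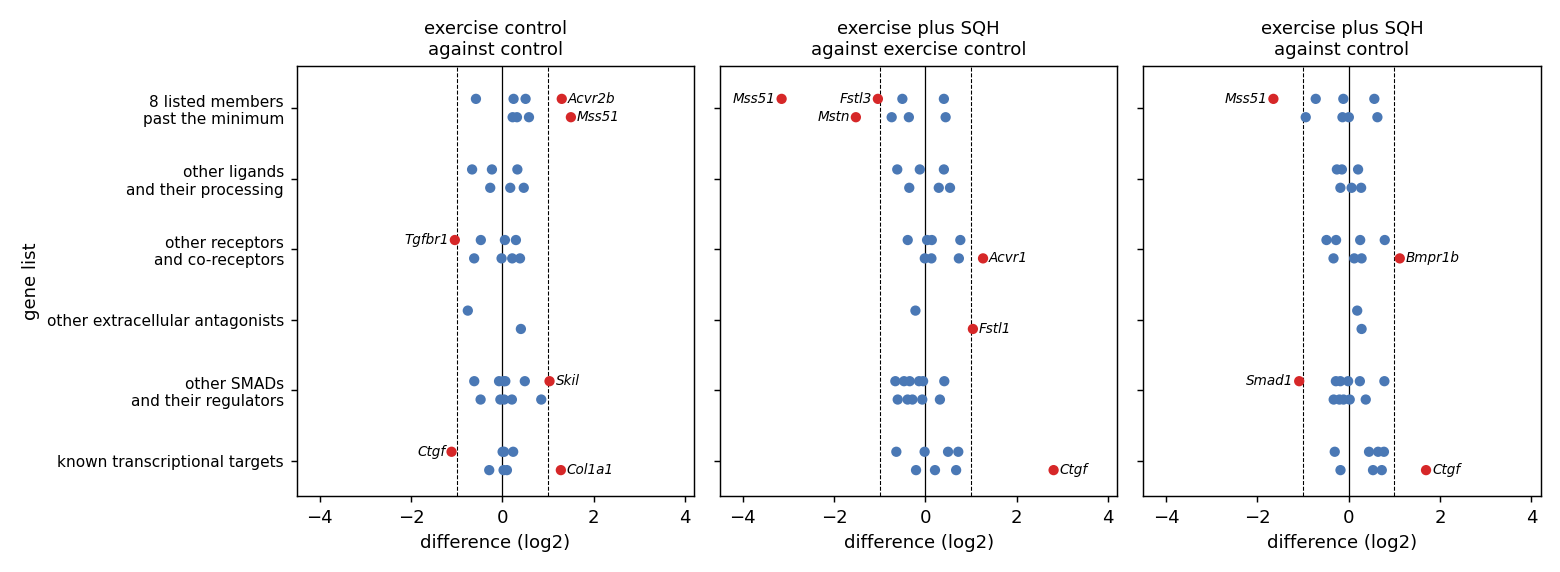
Difference in log2 level for the 8 members past the minimum and for 35 other pathway genes by list, 1 panel per comparison, with dashed lines at 1 and -1 and called genes as named red points. In the middle panel Mss51 (-3.15), Mstn (-1.52) and Fstl3 (-1.04) lie on the left, while Ctgf (2.81), Acvr1 (1.26) and Fstl1 (1.04) lie on the right.

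The rows most like Mss51 and Mstn were found by the Euclidean distance of 2 differences, exercise control minus control and exercise plus SQH minus control, over the 3 libraries. No tested row lay within 0.5 of Mss51. The nearest was Itpk1, an inositol phosphate kinase gene, at a distance of 0.69, with 6.59 in exercise plus SQH, 8.76 in the exercise control and 7.72 in the control. Itpk1 and Mss51 were the only 2 of 7857 tested rows at least 1 above the control in the exercise control and at least 1 below it with SQH. With a small RNA gene left out, next came Pars2 (1.04), Fbp2, the muscle fructose bisphosphatase gene (1.05), Sc5d (1.06) and Spata13 (1.07). Within 0.5 of Mstn lay 88 rows of any kind. The distance is absolute and few rows differ as widely as Mss51, so these counts also depend on the size of the differences. They do not tell which pattern is the rarer in shape. With pseudogene, small RNA, clone-named and repeated symbols left out, the nearest were Plcl2 (0.03), Usp3 (0.04), Mndal (0.10), Klhl26 (0.11) and Pars2 (0.12).

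**Figure D4:**
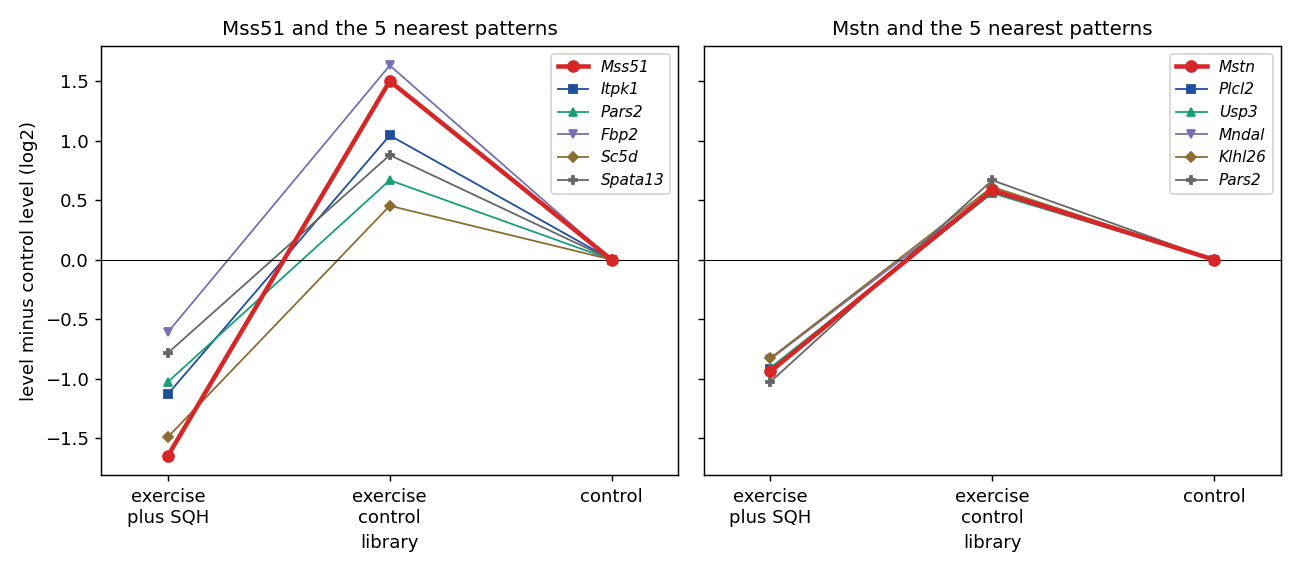
Log2 level minus the control level in exercise plus SQH, exercise control and control for Mss51 (left) and Mstn (right), each with the 5 genes of most similar pattern. Mss51 runs from -1.65 with SQH to 1.502 in the exercise control. The 5 genes beside it all lie above it with SQH, and all but Fbp2 lie below it in the exercise control. The 5 lines beside Mstn almost cover it.

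The protein-coding genes on either side of Mss51 were read for comparison, chosen by position after the Mss51 values were seen. Mss51 spans 20482867 to 20496901 on the minus strand of chromosome 14 (GRCm38), and none of its exonic bases is shared with another gene. Anxa7 ends 2734 bases away and stood at 8.65 in exercise plus SQH, 7.70 in the exercise control and 8.09 in the control, with the exercise control lowest. Ppp3cb, which encodes a catalytic subunit of calcineurin, lies 2463 bases away on the other side and stood at 9.77 in exercise plus SQH, 10.43 in the exercise control and 9.76 in the control. Its SQH and control values were 0.01 apart. Mrps16, 89233 bases away, stood at 9.06 in exercise plus SQH, 9.35 in the exercise control and 9.11 in the control. Cfap70 and Usp54, which lie nearer than Mrps16, were below the minimum. Myoz1, a Z-disc gene of fast fibres 152206 bases away, stood at 12.46 in exercise plus SQH, 13.34 in the exercise control and 12.33 in the control. Neither Ppp3cb nor Myoz1 was lower with SQH than in the control, as Mss51 was.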

How the data were processed

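Skeletal muscle RNA of 3 groups, 1 library each, was read by QuantSeq 3′ sequencing, per the labels' protocols. Per the submitters' processing notes, Bowtie2, edgeR and build mm10 were used; their roles are not stated, and the counter, annotation and strand handling are not given in the sources used. The authors deposited 1 log2 value per gene row, to 3 decimals, and the scaling behind it is not given either. Low linear values bunch at multiples of 1 step per library (0.766 with SQH, 1.19 in the exercise control, 0.939 in the control), with 84.4%, 95.7% and 100% of values up to 9 within 0.2 step of a whole multiple. A linear sum divided by its step gave the approximate reads used for counting errors, which cover counting only.

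Differences were taken on the deposited log2 values with no model and no p-value, since there is no replicate. The minimum was the median of the mean linear values of 15714 rows, those above 0 in some library. The members and lists were chosen with earlier results of these data known. Named genes were all members, the called genes of the wider list (up to 8 per comparison) and the 5 nearest patterns. Pseudogene, small RNA, clone-named and repeated symbols were left out of the nearest patterns. The values of 1 gene of the wider list are not reported here. Other scalings, a pseudocount of 10, other minimums and a 1.5-fold rule were tried. Gene positions and exon overlaps are from GENCODE M21 (GRCm38). Python 3.11.15, numpy 2.4.6, pandas 2.3.3 and scipy 1.17.1 were used.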

Additional observations from a re-analysis of the deposited data

How the results depend on the processing

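With 1 library per group no library can be left out without losing 2 of the comparisons. No paired analysis was possible because each group has 1 library. Over 3 other scalings (median centring, quantile normalization, equal sums without Rn45s) the calls among the members were those of the deposited values in every comparison. Of 120 member differences under these scalings and a pseudocount of 10, 119 moved by less than the counting interval, and no called difference changed sign. Acvr2a in exercise plus SQH against control, 0.004 as deposited, was -0.04 after centring. The exception was Mss51 in exercise control against control, at 1.58 after quantile normalization. With a pseudocount of 10, Fstl3 was no longer called. With the minimum at the upper quartile, 1 of 3 members was called in exercise control against control, where 5.93% of all rows were. Acvr2b fell under that minimum, and so did Fstl3. At 1.5-fold, 2 of 8 members were called in exercise control against control, where 25.6% of all rows were. In exercise plus SQH against the exercise control 4 of 8 were called, where 24% of all rows were. In exercise plus SQH against control 4 of 8 members were called, where 13.8% of all rows were. Smad3 was higher and Mss51, Mstn and Fstl3 were lower. Among the other pathway genes, in the order of the 3 comparisons, 8 of 59, 13 of 61 and 8 of 59 were called with no minimum. Of all rows, 20.3%, 19.4% and 14% were called at that setting. With the upper quartile 2, 2 and 1 of 21 were called, where 5.93%, 5.55% and 1.48% of all rows were. The 1.5-fold rule called 9, 11 and 8 of 35, where 25.6%, 24% and 13.8% of all rows were called. With the pseudocount, 2 of 35 were called in exercise control against control, where 6.8% of all rows were. Depth limits Acvr1b most, at 3 to 6 reads.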
